A study of Mus musculus with 8 samples.

Results

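The Polycomb genes Cbx2, Cbx6, Cbx7, Cbx8, Pcgf1, Pcgf2, Pcgf3, Pcgf5 and Pcgf6 were followed between neural progenitor cells (NPC) and the embryonic stem cells (ESC) from which they were derived. They were chosen by name, as 4 Cbx and 5 Pcgf genes among 20512 named genes with exon values and 18655 with intron values. A row was matched for 8 of the 9 in each table, and none was matched under the symbol Cbx6. All 8 passed the filter on low values in both tables. The NPC samples came from 1 clone, and the ESC samples from the parental hybrid mouse line F1-21.6, whose background is 129Sv-Cast/EiJ. The ESC were kept on mitomycin C-treated mouse embryonic fibroblast feeders in serum with leukaemia inhibitory factor. The NPC were grown out of the same line by a published neural differentiation protocol, so a single clone stands for the cell type. RNA left after removal of ribosomal RNA was sequenced from 2 biological replicates of each cell type, with 2 technical libraries from each replicate. Since the samples are bulk RNA, fewer cells of a type and less RNA per cell cannot be told apart.

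Polycomb repressive complex 1 (PRC1) places ubiquitin on histone H2A and keeps developmental genes silent. Each complex is built on the ligase Ring1 or Rnf2 and holds a single Pcgf protein, and the choice of Pcgf protein sets which partners join. Canonical PRC1 contains Pcgf2 or its paralog Bmi1, a Phc protein and a Cbx protein. The chromodomain of the Cbx protein binds the histone H3 methylation laid down by Polycomb repressive complex 2 (PRC2). Variant PRC1 contains Rybp or Yaf2 in place of a Cbx protein, and Pcgf1, Pcgf3, Pcgf5 and Pcgf6 occur in such complexes. Cbx7 is known as the main Polycomb Cbx protein of mouse ESC, and Cbx2 and Cbx8 are among those known to take its place as the cells differentiate.

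Sequence before the start site is shown for the 4 members whose exon levels changed, because CpG-rich DNA at promoters is what the Kdm2b partner of Pcgf1 recognises. The stretches come from the RefSeq promoter table of build GRCm38.p6, within 250 bases before the start, without bases that lie in an exon of the GENCODE M21 annotation. They are Cbx7 (chr15:79932769-79932896, minus strand), Cbx8 (chr11:119040970-119041163, minus strand), Pcgf2 (chr11:97699649-97699898, minus strand) and Pcgf6 (chr19:47050907-47051156, minus strand). In mm9 the introns counted for Pcgf2 reach 97561573, upstream of its listed start at 97560698 on the minus strand. A longer Pcgf2 transcript thus starts further upstream, and the Pcgf2 stretch may lie inside it. Whether the stretch acts as a promoter in these cells was not tested. Capitals mark CpG dinucleotides.
Cbx7: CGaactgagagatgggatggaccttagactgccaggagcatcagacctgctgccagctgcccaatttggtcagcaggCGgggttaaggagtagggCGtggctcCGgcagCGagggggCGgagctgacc
Cbx8: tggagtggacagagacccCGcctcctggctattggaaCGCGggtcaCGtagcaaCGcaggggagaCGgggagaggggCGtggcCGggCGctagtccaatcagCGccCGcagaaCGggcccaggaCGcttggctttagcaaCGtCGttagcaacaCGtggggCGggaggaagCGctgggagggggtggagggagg
Pcgf2: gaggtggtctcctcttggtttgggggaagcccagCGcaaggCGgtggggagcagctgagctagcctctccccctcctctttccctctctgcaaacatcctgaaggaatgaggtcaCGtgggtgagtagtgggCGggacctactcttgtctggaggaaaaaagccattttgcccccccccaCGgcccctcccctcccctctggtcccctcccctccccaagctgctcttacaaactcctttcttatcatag
Pcgf6: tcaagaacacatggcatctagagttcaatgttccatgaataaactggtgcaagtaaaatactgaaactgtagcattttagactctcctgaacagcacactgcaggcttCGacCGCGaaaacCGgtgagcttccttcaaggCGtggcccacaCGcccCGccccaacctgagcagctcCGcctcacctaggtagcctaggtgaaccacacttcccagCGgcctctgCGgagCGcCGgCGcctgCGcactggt

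Over the whole 250 bases before the start, Cbx7 held 23 CpG, Cbx8 held 22, Pcgf6 held 14 and Pcgf2 held 5. The median over 32851 promoters in the table was 6. As many CpG as in Cbx7 were found in 13.3% of all promoters, as many as in Cbx8 in 14.8%, as many as in Pcgf6 in 29.4% and as many as in Pcgf2 in 55.6%. Cbx7, which fell, and Cbx8, which rose, were therefore almost alike over the whole 250 bases. They were less alike in the printed stretches without exon bases, with 6 CpG in 128 bases for Cbx7 and 18 in 194 for Cbx8. The E-box CACGTG, a palindrome and the motif bound by Mga and Max of the Pcgf6 complex, was present before the start of Cbx8, Pcgf2 and Cbx6 and in 6.02% of all promoters. All 250 bases of the Cbx6 window lie in exons of the GENCODE M21 annotation. The E-box was not found in these windows of Cbx7, Pcgf3 and Pcgf6, nor in any of the 3 Pcgf5 windows. The E2F motif TTCCCGC, searched on both strands, was in 3.82% of all promoters. Among the members it was in 1 of the 3 Pcgf5 windows, and in none of the windows of Cbx6, Cbx7, Cbx8, Pcgf2, Pcgf3 and Pcgf6. Promoter windows were matched for 7 of the 9 members.

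The cell types carried the markers of their labels. The summed exon RPKM (reads per kilobase, scaled to the reads of the library) of 4 ESC markers was 7.54 in NPC and 2572 in ESC, and that of 4 matched neural progenitor markers 11423 in NPC and 55.9 in ESC. Of 8 fibroblast markers chosen for the feeder cells, the sum was 5.61 RPKM in NPC and 20.8 in ESC, 4 were called lower in NPC and none higher, and none was listed at 0 in either. The part of feeder cells in the ESC values was not tested. Astrocyte markers summed to 888 RPKM in NPC and 14.1 in ESC, neuron markers to 423 in NPC and 79.3 in ESC, and oligodendrocyte markers to 61.1 in NPC and 2.33 in ESC. No matched marker of these lists was at 0 in either cell type. Intron values rest on column denominators between 5186790 and 6500767 reads. NPC replicate 1 stood apart on introns. In 243 olfactory, vomeronasal, trace amine and taste receptor genes, silent in both cell types as far as known, the median intron level was 0.749 RPKM in NPC replicate 1 and 0.083 in NPC replicate 2. In ESC it was 0.0291 RPKM in replicate 1 and 0 in replicate 2. Over all genes tested on introns, replicate 2 lay above replicate 1 in NPC, by a median of 0.42 in log2(RPKM + 1). In ESC that median was 0.015. Wide NPC spreads of single genes below are to be read beside this offset.

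Exon levels changed for 4 of the 8 matched members. Of the Cbx members, 1 rose and 1 fell, while both Pcgf members that changed fell. In the authors' deposited table, 1 of the 8 was called higher in NPC (Cbx8) and 3 lower (Cbx7, Pcgf2 and Pcgf6) at an adjusted p below 0.05. Among 12509 genes tested there, 66.2% were called, 32.3% higher and 33.9% lower. The share of members called was thus no larger than that of all genes, and the members are described below by which paralog moved and how far. The median log2 fold change of the 8 in the authors' deposited table was 0.07, against -0.07 over all tested genes.

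**Figure D1:**
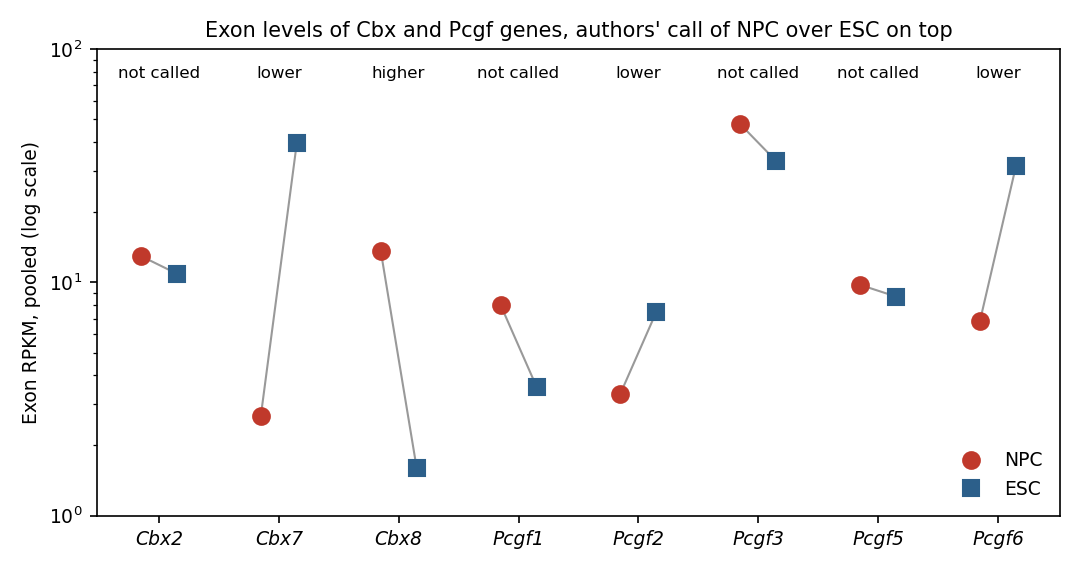
Pooled exon RPKM of the 8 matched members on a log axis, NPC as circles and ESC as squares joined by a line, with the authors' call above each pair. Cbx7 (2.68 in NPC, 39.5 in ESC) and Cbx8 (13.7 in NPC, 1.60 in ESC) cross each other, and Pcgf6 drops to 6.86 in NPC against 31.6 in ESC.

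Cbx7, the chromodomain subunit of canonical PRC1 in ESC, had the largest change of the members. Its pooled exon level was 2.68 RPKM in NPC and 39.5 RPKM in ESC, so that the ESC level was 14.8 times the NPC level. The authors' deposited table gives a log2 fold change of -4.01 with an adjusted p of 4.1e-53. Introns of Cbx7 (mm9, chromosome 15, 79751869 to 79762877, minus strand) were at 0.475 and 0.354 RPKM in NPC replicates 1 and 2, from 30 and 20 reads. In ESC replicates 1 and 2 they were at 6.36 and 5.94 RPKM, from 400 and 421 reads. Both NPC values lay far under both ESC values, and the cell types did not overlap. In NPC replicate 1 the Cbx7 value lay below the median of the receptor genes, 0.749 RPKM. Limma on log2(RPKM + 1) gave a log2 fold change of -2.34 (SE 0.206, Benjamini-Hochberg adjusted p = 2.85e-05), a scale that understates the change of low values. Cbx7 overlaps Apobec3 in the RefSeq annotation, and the labels do not say whether counting used the strand. Apobec3 was itself called lower in NPC on introns (limma log2 fold change -1.63, SE 0.202, adjusted p = 9.61e-05). How many reads the overlapping genes share was not tested.

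Cbx8, a Cbx protein of canonical PRC1 in differentiated cells, moved the other way. It was at 13.7 RPKM in NPC and 1.60 RPKM in ESC, an 8.55-fold higher exon level in NPC, and the authors' deposited table gives 2.90 with an adjusted p of 2.56e-08. Its introns (chromosome 11, 118900834 to 118902095, minus strand) amount to 1085 bases, so few reads fall on them. They were at 3.82 and 6.22 RPKM in NPC replicates 1 and 2, from 24 and 35 reads. In ESC replicates 1 and 2 they were at 0.320 and 0.851 RPKM, from 2 and 6 reads. Every NPC value lay above both ESC values. The limma log2 fold change was 1.92 (SE 0.252, adjusted p = 0.000135). It was 1.67 without ESC replicate 1, where the call was lost (limma adjusted p = 0.0547).

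Cbx2, the Cbx protein that compacts nucleosomes, did not pass either test. It was at 13.0 RPKM in NPC and 10.9 RPKM in ESC, with a log2 fold change of 0.14 and an adjusted p of 0.727 in the authors' deposited table. Intron levels (chromosome 11, 118884495 to 118889212, plus strand) were 1.30 and 2.53 RPKM in NPC replicates 1 and 2 against 1.42 and 1.81 RPKM in ESC replicates 1 and 2. The cell types overlapped, and the limma log2 fold change was 0.13 (SE 0.229, adjusted p = 0.666). With the columns centred on their medians it was 0.52 and passed (limma adjusted p = 0.0374).

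Cbx2 and Cbx8 are neighbours on chromosome 11, with start sites at 118884343 and 118902227 in mm9, 17.9 kb apart, and no other tested exon gene between them. Cbx2 had no call on exons or introns, while Cbx8 rose on both. On chromosome 15, Cbx6 itself gave no value. The intron table holds a row for Npcd, listed by RefSeq with the synonym Cbx6-Nptxr and overlapping Cbx6 in GRCm38.p6, which was picked after its values were seen. Its introns were at 2.84 and 7.73 RPKM in NPC replicates 1 and 2 against 9.56 and 10.4 RPKM in ESC replicates 1 and 2 (limma log2 fold change -0.92, SE 0.527, adjusted p = 0.167). How much of that signal is Cbx6 was not tested.

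Among the 5 Pcgf members, Pcgf6 had the largest exon change. Pcgf6 joins Mga, Max, E2f6 and L3mbtl2 in a variant PRC1 that silences germline genes in ESC. It was at 6.86 RPKM in NPC and 31.6 RPKM in ESC, with a log2 fold change of -2.36 and an adjusted p of 1.44e-19 in the authors' deposited table. Introns of Pcgf6 (chromosome 19, 47109176 to 47124940, minus strand) were at 1.39 and 1.11 RPKM in NPC replicates 1 and 2, from 101 and 72 reads. In ESC replicates 1 and 2 they were at 7.18 and 7.75 RPKM, from 518 and 630 reads. The groups were far apart relative to the spread within each. The limma log2 fold change was -1.91 (SE 0.279, adjusted p = 0.000258).

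Pcgf2, a core subunit of canonical PRC1 also called Mel18, was at 3.34 RPKM in NPC and 7.49 RPKM in ESC. The authors' deposited table gives -1.26 with an adjusted p of 0.00563. Its introns (chromosome 11, 97551673 to 97561573, minus strand) were at 1.61 and 4.31 RPKM in NPC replicates 1 and 2 against 5.81 and 6.27 RPKM in ESC replicates 1 and 2. The NPC values were both under the ESC values but far from each other, and limma did not call the gene (-0.92, SE 0.387, adjusted p = 0.0697). Leaving out NPC replicate 1 gave -0.41, and leaving out NPC replicate 2 gave -1.43. Limma's adjusted p was then 0.0331 and 0.00161, but with a lone NPC sample the spread comes from the 2 ESC replicates, and NPC is assumed to vary like them.

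Pcgf3, Pcgf5 and Pcgf1 were not called on exons or introns. Pcgf3, whose variant complex also contains Auts2 and casein kinase subunits, had the highest level of the members in NPC, at 47.7 RPKM in NPC and 33.1 RPKM in ESC (log2 fold change 0.40, adjusted p = 0.175 in the authors' deposited table). Its introns (chromosome 5, 108890471 to 108929375, plus strand) were at 2.56 and 4.40 RPKM in NPC replicates 1 and 2 against 3.16 and 3.52 RPKM in ESC replicates 1 and 2. The ESC values lay between the NPC values, and limma gave 0.01 (SE 0.304, adjusted p = 0.972).

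Pcgf5, the paralog closest to Pcgf3 in its complexes, was at 9.76 RPKM in NPC and 8.70 RPKM in ESC (0.01, adjusted p = 0.987 in the authors' deposited table). Its introns (chromosome 19, 36484400 to 36530110, plus strand) were at 1.01 and 1.14 RPKM in NPC replicates 1 and 2 against 1.09 and 0.855 RPKM in ESC replicates 1 and 2. All 4 values stood close together, with 249 to 283 reads each. The limma log2 fold change was 0.07 (SE 0.178, adjusted p = 0.752).

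Pcgf1, which works with Kdm2b and Bcor at CpG islands, was at 8.01 RPKM in NPC and 3.57 RPKM in ESC. Its log2 fold change of 1.03 in the authors' deposited table did not pass (adjusted p = 0.152). Its introns (chromosome 6, 83028694 to 83030703, plus strand) hold 1371 bases and drew 17 to 36 reads a column. They were at 2.52 and 5.06 RPKM in NPC replicates 1 and 2 against 2.78 and 1.91 RPKM in ESC replicates 1 and 2, so the groups overlapped. Limma gave 0.48 (SE 0.306, adjusted p = 0.216), and 0.87 with an adjusted p of 0.0199 when the columns were centred. The value rests on NPC replicate 2: it was 0.87 without NPC replicate 1 (limma adjusted p = 0.0252, with the spread from ESC alone) and 0.09 without NPC replicate 2 (0.717).

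**Figure D2:**
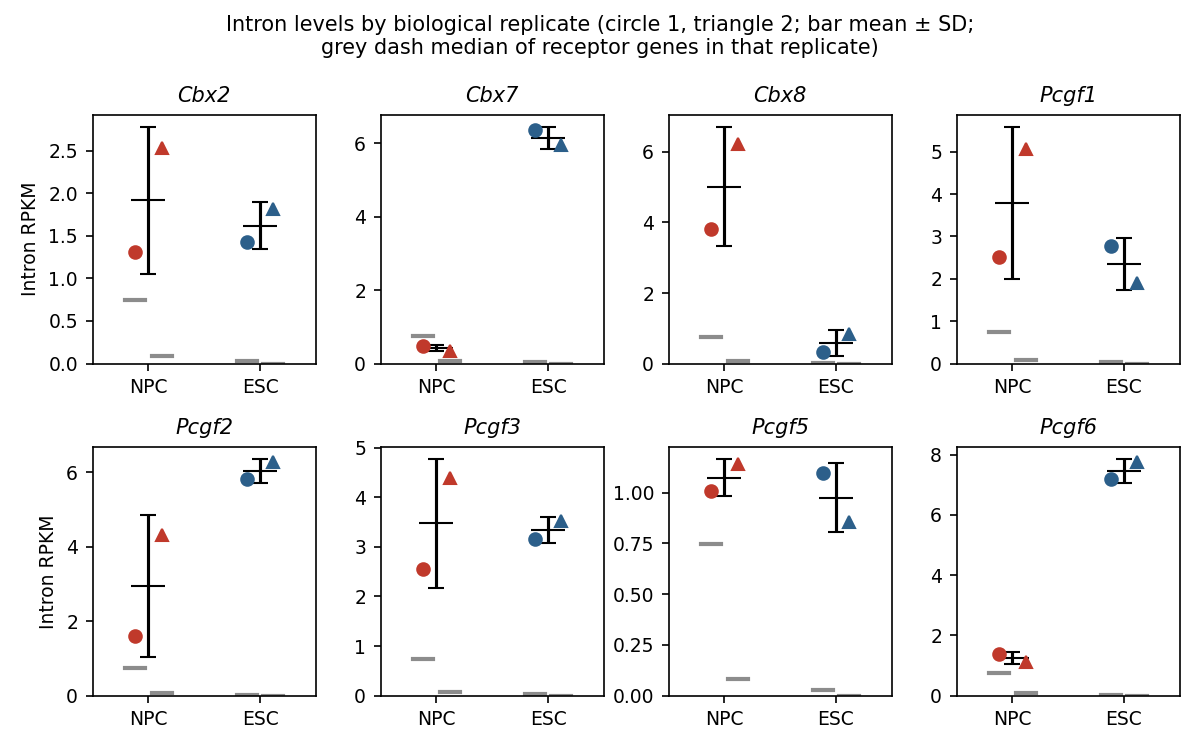
Intron RPKM of the 8 matched members in each biological replicate, NPC left and ESC right, with the mean and SD of 2 replicates and, as grey dashes, the median of 243 receptor genes in the same replicate. Cbx7 and Pcgf6 are low in both NPC replicates and Cbx8 is low in both ESC replicates, while Cbx2, Pcgf1, Pcgf3 and Pcgf5 overlap.

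On introns, limma called 1 of the 8 members higher in NPC (Cbx8) and 2 lower (Cbx7 and Pcgf6). Of 8811 genes tested, 47.3% were called, 13.2% higher and 34.0% lower, so the members' share was again under that of all genes. The median intron log2 fold change was 0.04 over the members and -0.43 over all genes. Each intron log2 fold change differed by -0.40 from its value with centred columns. After the columns were centred on their medians, the calls over all genes were 2185 higher and 2165 lower, in place of 1167 and 2998, and 5 members were called, 3 higher and 2 lower. The calls of Cbx7, Cbx8 and Pcgf6 and their directions were the same with centred columns.

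Exon and intron changes of the members had the same sign in all 8. Cbx7 was at -4.01 in the authors' exon table and at -2.34 in limma on introns, Pcgf6 at -2.36 and -1.91, and Cbx8 at 2.90 and 1.92. The signs of Cbx2, Pcgf3 and Pcgf5 carry little weight, since these intron values were within 1 SE of 0. Their signs on introns turned when the receptor median was subtracted from each column, to -0.17, -0.16 and -0.28. The intron and exon values come from the same libraries, so one is no independent sample for the other.

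**Figure D3:**
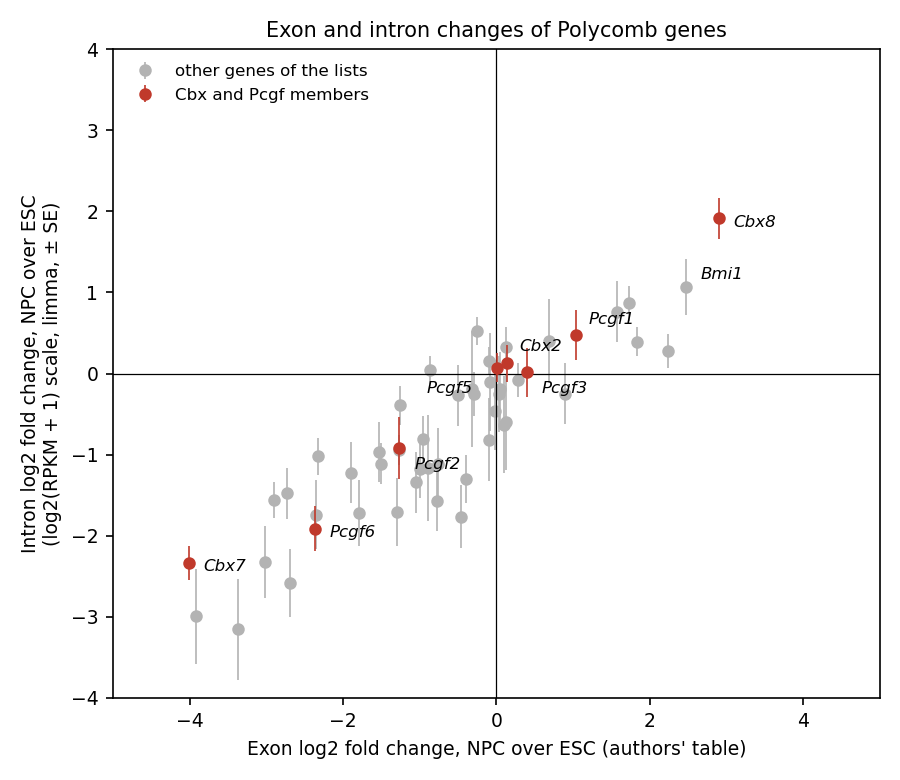
Exon log2 fold change in the authors' table (x axis) against intron log2 fold change from limma with its SE (y axis), NPC over ESC, for 8 members (red) and the listed Polycomb genes tested on both (grey). Cbx7 and Pcgf6 lie at the lower left, Cbx8 at the upper right, and Cbx2, Pcgf3 and Pcgf5 near 0.

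The balance of the 3 matched Cbx members differed between the cell types. Over Cbx2, Cbx7 and Cbx8 the exon RPKM summed to 29.4 in NPC and 52.0 in ESC. Cbx7 made up 9.13% of that sum in NPC and 76.0% in ESC. The share of Cbx8 was 46.7% in NPC and 3.08% in ESC, and that of Cbx2 44.2% in NPC and 21.0% in ESC. Put as a ratio of exon RPKM, Cbx8 over Cbx7 was 5.11 in NPC and 0.0405 in ESC. These shares are pooled values with no replicate error, and they hold among these 3 genes, not for the whole Cbx family. On introns, which give the shares per replicate, Cbx7 made up 8.49% and 3.89% in NPC replicates 1 and 2 against 78.5% and 69.1% in ESC replicates 1 and 2. Cbx8 made up 68.2% and 68.3% in NPC replicates 1 and 2 against 3.94% and 9.89% in ESC replicates 1 and 2. Neither share overlapped between cell types. An exact 2-sided permutation test gave p = 0.333 for each, the smallest p that 2 against 2 samples allow. In NPC replicate 1 the intron value of Cbx7 lay below the median of the receptor genes. With the receptor median subtracted from each column, the mean intron share of Cbx7 was 1.53% in NPC and 74% in ESC.

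Within the Pcgf family the sum was 146 RPKM in NPC and 96.0 RPKM in ESC, Bmi1 included. Pcgf6 made up 4.70% of it in NPC and 32.9% in ESC, while Pcgf3 made up 32.6% in NPC and 34.5% in ESC. Without Bmi1 in the sum, the share of Pcgf6 was 9.07% in NPC and 37.4% in ESC. Bmi1, the paralog of Pcgf2 in canonical PRC1 and not a member here, made up 48.2% in NPC and 12% in ESC. Pcgf2 itself was a small part, 2.29% in NPC and 7.80% in ESC. Intron shares of Pcgf6 were 10.9% and 4.60% in NPC replicates 1 and 2 against 32.3% and 34.6% in ESC replicates 1 and 2. Those of Pcgf3 were 19.9% and 18.2% in NPC replicates 1 and 2 against 14.2% and 15.7% in ESC replicates 1 and 2. On this scale too the NPC and ESC replicates of Pcgf6 did not overlap, with the same smallest p of 0.333 in the exact permutation test.

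**Figure D4:**
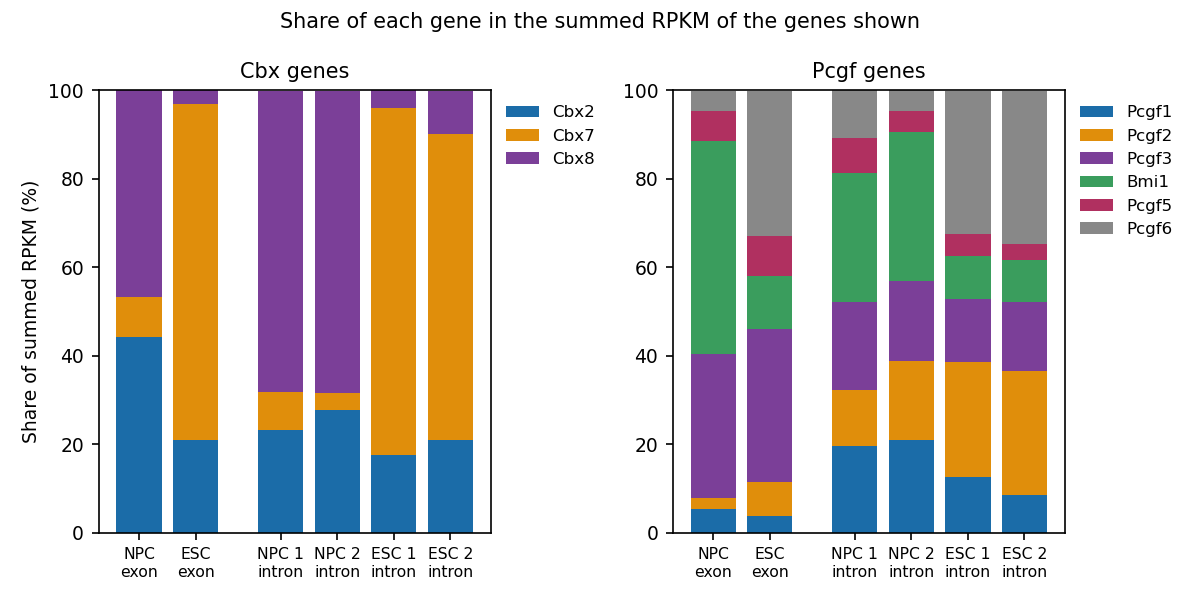
Share of each gene in the summed RPKM of the Cbx or Pcgf genes shown (percent), NPC left of ESC, for pooled exon values and for introns of each biological replicate. The Cbx7 block is 9.13% in NPC against 76.0% in ESC on exons, and the Pcgf6 block to 4.70% in NPC against 32.9% in ESC.

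The order of the members by exon RPKM differed between the cell types. In NPC it ran from Pcgf3 (47.7) over Cbx8 (13.7), Cbx2 (13.0), Pcgf5 (9.76), Pcgf1 (8.01), Pcgf6 (6.86) and Pcgf2 (3.34) down to Cbx7 (2.68). In ESC it ran from Cbx7 (39.5) over Pcgf3 (33.1), Pcgf6 (31.6), Cbx2 (10.9), Pcgf5 (8.70), Pcgf2 (7.49) and Pcgf1 (3.57) down to Cbx8 (1.60). Cbx7 thus stood last in NPC and first in ESC, and whether neighbours in these orders differ beyond replicate spread cannot be read from pooled values. Among all named genes, the percentile of Cbx7 by exon RPKM was 49.5 in NPC and 84.0 in ESC, and that of Cbx8 was 66.2 in NPC and 46.1 in ESC. On introns, Pcgf1 in NPC replicates 1 and 2 (2.52 and 5.06 RPKM) overlapped Pcgf3 (2.56 and 4.40 RPKM), and in ESC replicates 1 and 2 Cbx7 (6.36 and 5.94 RPKM) overlapped Pcgf2 (5.81 and 6.27 RPKM).

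Other PRC1 subunits changed in both directions. Of 10 listed genes, 5 were called higher and 4 lower in the authors' deposited table. Over all tested genes it calls 32.3% higher and 33.9% lower. The median log2 fold change of the 10 was 0.66 against -0.07 over all tested genes. Bmi1 was at 70.4 RPKM in NPC and 11.5 RPKM in ESC (2.47, adjusted p = 1.01e-19 in the authors' deposited table). Its introns were at 3.73 and 8.13 RPKM in NPC replicates 1 and 2 against 2.19 and 2.09 RPKM in ESC replicates 1 and 2, and limma gave 1.06 (SE 0.349, adjusted p = 0.0259). That call was lost without ESC replicate 1 (adjusted p = 0.484), without ESC replicate 2 (0.535), without a filter on low values (0.173), without the mean-variance trend (0.0725) and with the receptor median subtracted (0.214), all by limma. Leaving out NPC replicate 1 gave 1.54, and leaving out NPC replicate 2 gave 0.59. Of the Phc genes, whose proteins link canonical complexes together, Phc1 was at 15.4 RPKM in NPC and 118 RPKM in ESC, Phc2 at 18.1 in NPC and 4.66 in ESC, and Phc3 at 27.6 in NPC and 5.34 in ESC. Rybp was at 1.91 RPKM in NPC and 8.81 RPKM in ESC, and its paralog Yaf2 at 46.5 RPKM in NPC and 12.5 RPKM in ESC. All of these passed on exons in the authors' deposited table. On introns limma did not call Phc2 (0.39, adjusted p = 0.0937) or Phc3 (0.28, adjusted p = 0.285). Of 9 listed genes tested there, 3 were called higher and 3 lower, against 13.2% higher and 34.0% lower over all genes. Of the ligases, Rnf2 (92.3 RPKM in NPC, 166 in ESC) fell and Ring1 (9.17 in NPC, 2.84 in ESC) rose on exons. Their log2 fold changes in the authors' deposited table were -0.996 and 1.58. On introns Ring1 was at 1.40 and 5.92 RPKM in NPC replicates 1 and 2 against 1.40 and 1.41 RPKM in ESC replicates 1 and 2, so the difference rests on NPC replicate 2 and was not called (0.76, limma adjusted p = 0.115). With centred columns it was 1.16 and passed (limma adjusted p = 0.0447).

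Among 20 partners of the variant complexes, the authors' deposited table calls 2 higher and 9 lower. Over all tested genes it calls 32.3% higher and 33.9% lower. The median log2 fold change of the partners was -0.43 against -0.07 over all tested genes. From the complex of Pcgf6, L3mbtl2 was at 14.3 RPKM in NPC and 96.8 RPKM in ESC (-2.90 in the authors' deposited table) and Mga at 51.5 RPKM in NPC and 135 RPKM in ESC (-1.54). Wdr5 (32.9 RPKM in NPC, 193 in ESC) and Tfdp1 (17.7 in NPC, 47.0 in ESC), listed with the same complex, also fell there. Max (107 RPKM in NPC, 91.1 in ESC) and E2f6 (16.1 in NPC, 13.6 in ESC), named after their values were seen, were not called. Usp7, a deubiquitinase, was at 58.1 RPKM in NPC and 266 RPKM in ESC, and the kinase subunit Csnk2a2 at 9.07 in NPC and 20.4 in ESC. Auts2, a partner of Pcgf3 and Pcgf5, rose in the authors' deposited table (1.86), at 5.83 RPKM in NPC and 1.47 RPKM in ESC. Limma on introns called none of 18 tested partners higher and 8 lower, against 13.2% higher and 34.0% lower over all genes. At an intron median of -0.88 this list lay under the -0.43 of all genes.

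Genes outside PRC1 give the setting. Of all genes tested on exons, the authors' deposited table calls 32.3% higher and 33.9% lower. Of 11 PRC2 genes, 7 were called lower and none higher in the authors' deposited table (median -0.89), with Mtf2 (23.1 RPKM in NPC, 315 in ESC), Eed (51.9 in NPC, 486 in ESC), Jarid2 (51.1 in NPC, 309 in ESC), Suz12 (40.6 in NPC, 126 in ESC) and Aebp2 (28.9 in NPC, 53.5 in ESC) changing most. The Cbx genes that encode HP1 proteins, which bind a different histone H3 methylation, are given whole, as a list of 3: in the authors' deposited table Cbx5 was called higher (0.69) and Cbx1 lower (-0.77), and Cbx3 had -0.08 and no call. Of 5 tested genes of H2A deubiquitination, which removes the PRC1 mark, 3 were called lower and none higher, with Asxl1 at 22.2 RPKM in NPC and 75.5 RPKM in ESC. At the Ink4 locus, a known target of Cbx7, Cbx8 and Bmi1, Cdkn2a was at 23.4 RPKM in NPC and 16.1 RPKM in ESC and was not called (adjusted p = 0.446 in the authors' deposited table). Cdkn2b, at 8.64 RPKM in NPC and 14.9 RPKM in ESC, was called lower (-0.94, adjusted p = 0.0341 in the authors' deposited table).

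**Figure D5:**
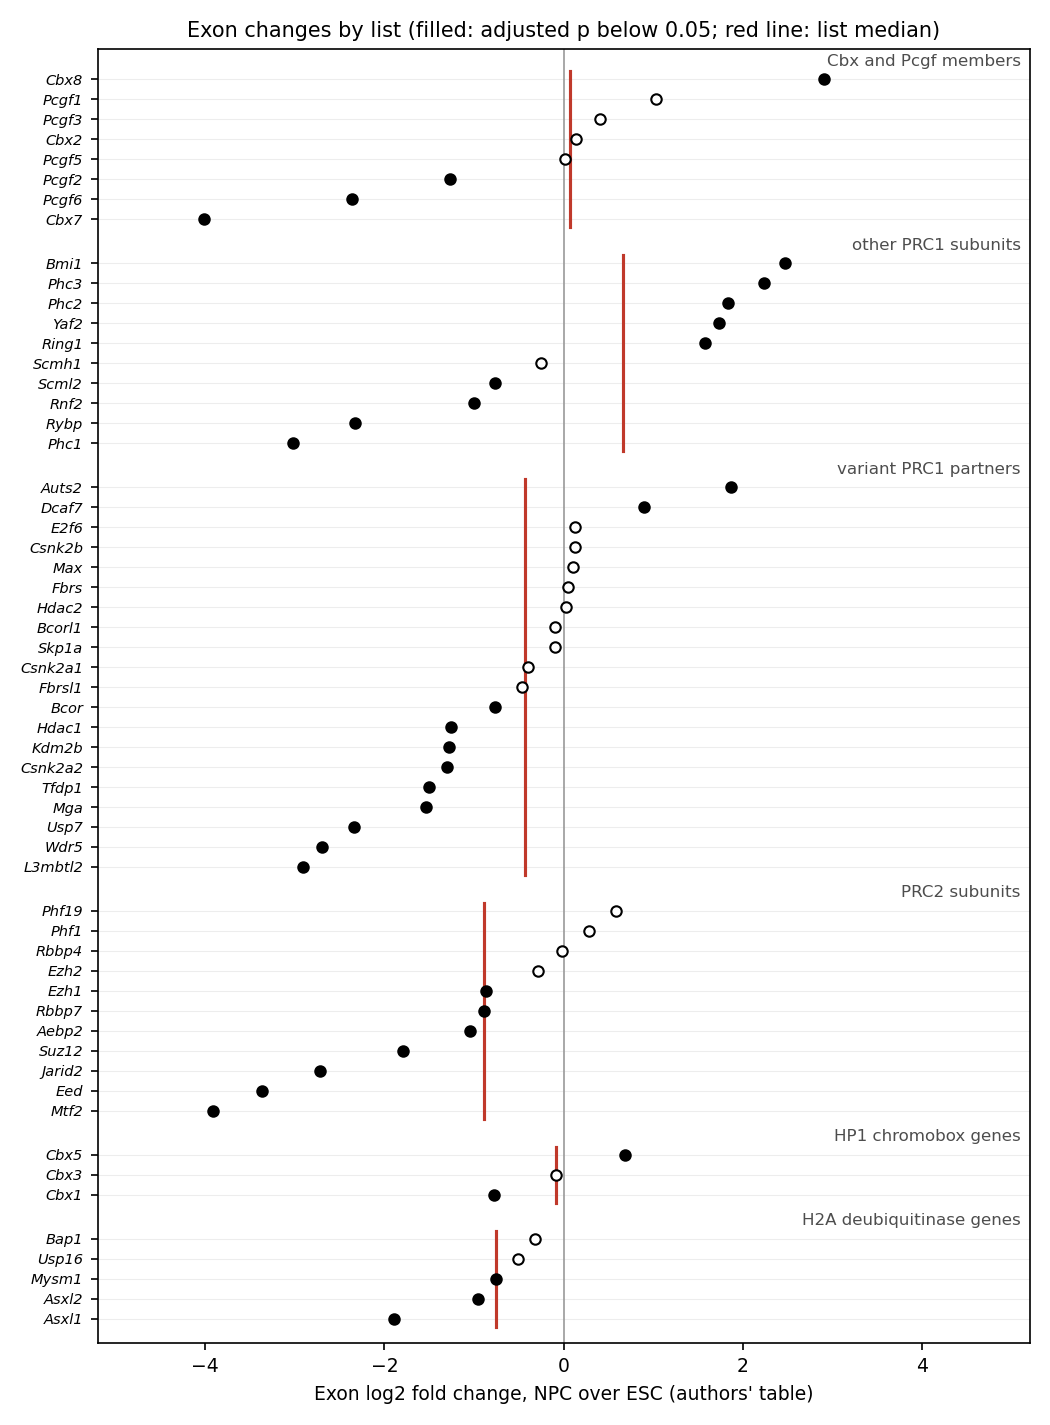
Exon log2 fold change of NPC over ESC in the authors' table for the 8 matched members and the listed genes around them, 1 row per gene, filled where the adjusted p was below 0.05, with the list median as a red line. The members spread from -4.01 (Cbx7) to 2.90 (Cbx8) around a median of 0.07, and the PRC2 list has no filled point to the right of 0.

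The genes nearest to Cbx7 in their intron levels over the 4 replicate columns, by Euclidean distance in log2(RPKM + 1), were Ung (0.155), Ass1 (0.185) and Pidd1 (0.208). Those nearest to Cbx8 were Vash1 (0.322), Tgfbr3l (0.354) and Emilin1 (0.411). On exons Ung was at 10.9 RPKM in NPC and 118 RPKM in ESC, and Vash1 at 67.1 RPKM in NPC and 4.70 RPKM in ESC. Likeness over 4 columns describes these columns and no more.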

How the data were processed

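Per the submitters' processing notes, DESeq2 1.10.0 and build mm9 were used. For aligner, counter, annotation and strand: not given in the sources used here. As deposited by the authors, exon RPKM is pooled per cell type, beside a log2 fold change (NPC over ESC) and its adjusted p-value. They also deposited intron RPKM per biological replicate, with technical libraries combined. That unit was inferred from the values: single-intron genes give whole reads, within 0.001 reads, from 1 denominator per column (5792056 and 5186790 in NPC, 5767704 and 6500767 in ESC), and read numbers of multi-intron genes followed. Reads cover counting error only. Unnamed rows (84 exon, 64 intron) were left out.

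Exon calls were read as deposited where the mean of both cell types was 1 RPKM or more. Introns averaging 1 RPKM or more in the 4 columns were tested on log2(RPKM + 1) with limma 3.58.1 (mean-variance trend, R 4.3.3), NPC against ESC. Benjamini-Hochberg adjustment was over all 8811 genes, with a threshold of 0.05. The fit was first run on simulated data with the spread of the ESC replicates and no offset between columns. That run does not cover the wider spread of the NPC replicates. The limma p-values rest on 2 and 2 biological replicates of 1 line and 1 clone. Limma draws the spread of each gene towards that of other genes at a like level. These p-values therefore do not measure the replicate spread of a single gene alone. The authors' exon p-values come from a comparison over all libraries. Whether technical libraries were merged before that comparison could not be told. Those exon p-values may therefore count technical libraries as replicates and are not to be read as biological spread alone. Alternatives were pseudocount, filters, centred columns, no trend, a replicate block, leaving out each replicate and subtracting the median of receptor genes, the last added after seeing the data. Members and lists were chosen with earlier results of these data known. Named are all members and, per list, called genes with an absolute log2 fold change of at least 1, at most 6 in each direction, plus Bmi1, Ring1 and Rnf2, and the 3 genes nearest to Cbx7 and to Cbx8 on introns. 1 gene of the rule is not reported here and is left out of the lists, shares and figures. Further genes are marked as named after their values were seen. Cbx1, Cbx3 and Cbx5 make up a whole list, as do Cdkn2a and Cdkn2b. Scripts used Python 3.11.15 with pandas 2.3.3 and scipy 1.17.1.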

Additional observations from a re-analysis of the deposited data

How the results depend on the processing

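The intron changes of Cbx7 and Pcgf6 kept their direction and call under all 11 alternatives, with log2 fold changes from -3.61 to -1.94 and from -2.49 to -1.52. Cbx8 kept its direction (1.62 to 2.98) and its call in 9 of 11. It was not called without a filter (limma adjusted p = 0.0548) or without ESC replicate 1 (0.0547). With a mean of at least 10 RPKM, fewer genes enter, and 5473 of 8057 exon genes and 2 of 4 members were called. With the filter at 1 RPKM it was 8277 of 12509 genes and 4 of 8 members. On introns 1166 of 18655 genes were called without a filter and 2728 of 8811 with the receptor median subtracted. Without NPC replicate 1 or 2, 6192 and 6574 were called, and without ESC replicate 1 or 2, 1686 and 1594. The cause was not tested. Leaving out a replicate gave 2 to 5 called members, and centred columns gave 5. Subtracting the receptor median turned Cbx2 (-0.17), Pcgf3 (-0.16) and Pcgf5 (-0.28). With a replicate left out, the lone sample is assumed to vary like the other group. Such fits gave Pcgf1 from 0.09 to 0.87, Cbx2 from -0.18 to 0.43, Pcgf3 from -0.29 to 0.32 (-0.05 without ESC replicate 1), Pcgf5 from -0.0147 to 0.16 and Ring1 from -0.0059 to 1.53. Without Bmi1 in the sum, the exon share of Pcgf6 was 9.07% in NPC and 37.4% in ESC (with it, 4.70% in NPC and 32.9% in ESC), a difference of -28.3 percentage points in place of -28.2. No such alternative was run for the Cbx sum. Intron share differences with a replicate left out ran from -72.3 to -62.9 for Cbx7 and from -28.9 to -22.6 for Pcgf6. The replicate block called 3777 genes and 3 members, and also Ring1 (limma adjusted p = 0.00979). Replicate 1 deviations of NPC and ESC correlated at 0.019 over genes, so the numbers were not taken to pair samples. The 2 to 6 intron reads of Cbx8 in ESC limit the precision of its fold change.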
